A study of Mus musculus with 11 samples.

Results

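The effect of deleting Nemo in liver parenchymal cells was measured over both Cxcr6 states at once, by setting all 6 arrays of Nemo-deleted hepatocytes against all 5 arrays of hepatocytes with Nemo intact, which together are the 11 arrays of the study. Arrays were assigned by the words NemoLPC-KO in their titles. Of 18337 genes tested, 373 lay higher in every Nemo-deleted array than in every Nemo-intact array and 1305 lay lower, 1678 genes in all. Such genes are said here to separate the arrays, and the gap of a gene is the distance on the log2 scale between the nearest arrays of the 2 arms.

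Hepatocytes came from male mice of 12 weeks. The Nemo-deleted arm held Nemo KO (Nemo deleted in liver parenchymal cells, Cxcr6 intact, n = 3) and double KO (the same deletion together with CXCR6 knockout, n = 3), and the Nemo-intact arm held wildtype (n = 2) and Cxcr6 KO (n = 3). By their source names, the wildtype and Nemo KO arrays belong to a line called Nemo (Cre-negative and Cre-positive), and the Cxcr6 KO and double KO arrays to a line called Nemo_CXCR6 (likewise). Within a line the Nemo-intact arrays therefore also lack Cre, and Cxcr6 state and line cannot be told apart. The labels name no promoter for Cre. Replicates are labelled as biological, but nothing ties each one to a mouse of its own, so p-values measure the spread between these samples, which may be technical.

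Nemo is the product of Ikbkg and holds the IkB kinases in the complex that releases NF-kB from its inhibitors after signals such as TNF. In hepatocytes NF-kB restrains cell death, and mice without Nemo in these cells are known to develop chronic hepatitis, fibrosis and liver tumours. Cxcr6 is a chemokine receptor of T cells and NKT cells, and Cxcl16 is its ligand.

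Log2 fold changes are Nemo-deleted minus Nemo-intact at the same Cxcr6 state, ± the standard error of the limma fit, which had Nemo and Cxcr6 state as terms. A gene was called at an adjusted p below 0.05 (Benjamini-Hochberg over all genes tested), and "rose" and "fell" are used of called genes alone. Every list count below is to be set against all genes tested, of which 4.67% rose, 14.7% fell, 2.03% separated upward and 7.12% downward. Deposited values are log2 signals. All array medians lay between 5.19 and 5.38.

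The array labelled wildtype replicate 2 stood apart. Over all rows it correlated with wildtype replicate 1 at 0.984, against 0.990 to 0.995 between replicates of the other groups, and with Nemo KO replicate 3 at 0.990. Mki67, a proliferation marker, was at 11.18 in it and between 5.35 and 5.89 in the other Nemo-intact arrays. Its sex-biased liver genes also differed, while the labels give male mice for all arrays. The mean over 19 male-biased genes was 14.003 in it and between 15.88 and 16.12 in the other Nemo-intact arrays. The mean over 17 female-biased genes with a row, of which 14 were tested, was 11.14 against 9.17 to 9.96. Cyp2b9, a P450 higher in female liver and chosen after its values were seen, was at 16.49 in it and between 7.62 and 11.73 in the other Nemo-intact arrays. The Y-linked gene Kdm5d was at 8.93 in it and between 7.72 and 8.998 over all arrays. The part of this difference in the comparisons below was not tested. Of the male-biased genes, 1 rose and 0 fell with all arrays, and 1 rose and 6 fell without wildtype replicate 2. Where it moves a leading count by over 1.5 times, the count without it is given. The secreted products of hepatocytes were abundant in every array: albumin (Alb) lay between 19.82 and 19.93 and transthyretin (Ttr) between 18.82 and 18.99. The highest value of any row in any array was 19.93, so rows at the level of albumin can hardly show a rise. Ikbkg did not follow the labels, with 9.02 and 9.47 in wildtype, 9.18, 9.12 and 9.16 in Cxcr6 KO, 9.33, 9.18 and 9.45 in Nemo KO, and 8.76, 8.90 and 9.49 in double KO. Its log2 fold change was -0.03 ± 0.14 (limma, adjusted p = 0.919). The sources do not say which exons were deleted or where the probes of this row sit, so the row checks nothing. Cxcr6 lay between 4.94 and 5.56 in all arrays, around the array medians, in the groups with and without the receptor.

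Promoter windows of 3 separating genes are shown because their gaps were among the widest of the named genes, upward for Gldn and Apoa4 and downward for Acadsb. Each window runs from 250 bases before the start site to 50 bases after it, in RefSeq for GRCm38.p6, 5′ to 3′ on the strand of the gene. Gldn lies at chr9:54286236-54286535 on the plus strand, Apoa4 at chr9:46240594-46240893 on the plus strand and Acadsb at chr7:131410351-131410650 on the plus strand. Capitals mark matches to TGANTCA, the core letters bound by AP-1 factors, searched on both strands.
Gldn: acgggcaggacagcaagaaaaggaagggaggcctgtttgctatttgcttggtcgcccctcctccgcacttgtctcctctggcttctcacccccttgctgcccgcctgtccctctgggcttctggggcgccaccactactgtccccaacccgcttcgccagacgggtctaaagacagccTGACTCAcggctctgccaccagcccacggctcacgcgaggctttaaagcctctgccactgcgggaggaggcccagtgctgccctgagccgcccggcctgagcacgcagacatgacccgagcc
Apoa4: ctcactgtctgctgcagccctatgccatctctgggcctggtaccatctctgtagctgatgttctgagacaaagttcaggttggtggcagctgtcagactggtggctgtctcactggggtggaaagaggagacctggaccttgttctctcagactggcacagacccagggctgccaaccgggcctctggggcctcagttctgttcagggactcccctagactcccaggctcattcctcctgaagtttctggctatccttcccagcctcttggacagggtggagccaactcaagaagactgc
Acadsb: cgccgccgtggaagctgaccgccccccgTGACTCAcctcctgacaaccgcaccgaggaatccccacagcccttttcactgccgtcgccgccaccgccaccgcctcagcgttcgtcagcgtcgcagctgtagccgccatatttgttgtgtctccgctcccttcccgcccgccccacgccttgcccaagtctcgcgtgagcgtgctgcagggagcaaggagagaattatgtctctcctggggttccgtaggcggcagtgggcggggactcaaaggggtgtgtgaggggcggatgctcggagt
The match began 72 bases before the start site of Gldn and 222 bases before that of Acadsb. Apoa4 held none. Of the promoter windows of tested genes, 5.82% held TGANTCA, against 9.23% of the windows of genes that separated upward (30 of 325) and 2.70% of those that separated downward (18 of 666). Only 1 form of the NF-kB motif was searched, on both strands. That form was in 0.452% of the windows of tested genes, in 1 of 325 upward windows and in 0 of 666 downward windows. Other forms of the NF-kB site were not searched, so these counts do not give the share of windows with any such site. The promoter letters TATAAA were in 9.34% of the windows of tested genes, in 15.1% of upward and 6.61% of downward windows, and CCAAT in 37.9%, 29.8% and 41.3%. In all, 794 separating genes had a window. These shares are descriptions and were not tested.

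Nemo deletion was accompanied by fewer but larger changes upward than downward. Upward, 857 genes (4.67% of those tested) rose and 373 (2.03%) separated, with a median log2 fold change of 0.75 among the latter. Downward, 2701 genes (14.7%) fell and 1305 (7.12%) separated, with a median of -0.64. Of the separating genes, 136 of the higher (36.5%) and 143 of the lower (11.0%) differed by 2-fold or more. A gap over 1 log2 unit was found for 12 higher genes and 1 lower gene. The median log2 fold change over all genes tested was -0.05. Among the separating genes, 337 higher and 1211 lower were also called, and 130 were not. At the limit of the rule, Tle5, a Groucho-family corepressor, separated by a gap of 8e-05, and Abraxas2 was tied at 9.04 in wildtype replicate 2, double KO replicate 1 and double KO replicate 3 and so did not separate.

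These counts depended on single arrays. Without wildtype replicate 2, 1060 genes separated upward and 2627 downward, and 1386 rose. Downward separation reached 2107 genes without double KO replicate 1, and upward separation reached 585 without Nemo KO replicate 3. Fewer genes rose without Cxcr6 KO replicate 3 (406), Cxcr6 KO replicate 2 (440), double KO replicate 2 (482), wildtype replicate 1 (500) or double KO replicate 3 (535). Fewer fell without wildtype replicate 1 (1467), Cxcr6 KO replicate 3 (1583), double KO replicate 2 (1704) or Cxcr6 KO replicate 2 (1737).

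Ly6d, a lipid-anchored surface protein of the Ly6 family, had the widest gap of all genes tested. Its log2 signal was 4.84 and 5.58 in wildtype and 5.19, 5.37 and 4.80 in Cxcr6 KO. In the Nemo-deleted arrays it was 11.37 at the lowest, 14.13 at the median and 15.60 at the highest. The Nemo-intact arrays sat near the array medians, and all Nemo-deleted arrays stood far above them, with a gap of 5.79. The log2 fold change was 8.87 ± 0.57 (limma, Benjamini-Hochberg adjusted p = 0.000187). No detection call was used, so this is a difference of signals and not a fold over a measured baseline. Gldn, gliomedin, known as a ligand that gathers sodium channels at nodes of Ranvier, showed the same layout. It was at 4.55 and 4.83 in wildtype and at 5.56, 4.92 and 4.95 in Cxcr6 KO, against 9.12, 10.66 and 11.42 as the lowest, median and highest Nemo-deleted array. No array of either arm lay within 3.57 log2 units of the other arm, and the log2 fold change was 5.53 ± 0.35 (limma, adjusted p = 0.000187), again from Nemo-intact arrays near the array medians.

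**Figure D1:**
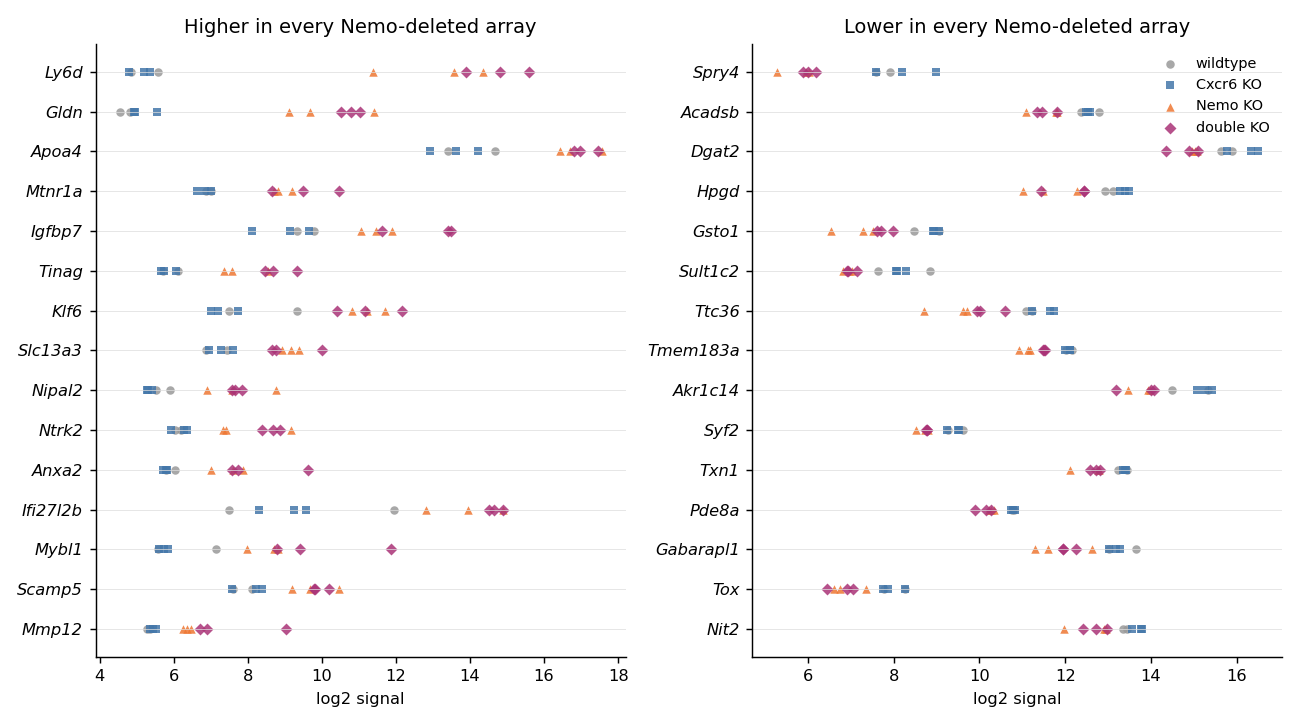
Log2 signal of 15 genes higher (left) and 15 lower (right) with Nemo deleted, ordered by gap. Each of the 11 arrays has a point, coloured by group. The genes have the widest gaps among called, separating genes without predicted models, pseudogenes, small RNAs or olfactory receptors. In the left panel the Nemo-deleted arrays of Ly6d lie between 11.37 and 15.60 and all Nemo-intact arrays at or below 5.58; in the right panel the gap of Spry4 is 1.40.

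Secreted and matrix proteins made up several of the next genes. Apoa4, an apolipoprotein of triglyceride-rich particles, was at 14.69 and 13.40 in wildtype and at 12.91, 13.63 and 14.22 in Cxcr6 KO. The Nemo-deleted arrays ran from 16.42 over a median of 16.89 to 17.55. It was already abundant with Nemo intact and still had a gap of 1.73, with a log2 fold change of 3.21 ± 0.33 (limma, adjusted p = 0.00316). Igfbp7, a secreted protein of vessels and stroma, lay between 8.12 and 9.78 with Nemo intact and between 11.06 and 13.50 with Nemo deleted. The arms had a gap of 1.28, and the log2 fold change was 3.00 ± 0.49 (adjusted p = 0.00793). Tinag, a basement membrane glycoprotein best known from kidney tubules, had a gap of 1.23 and a log2 fold change of 2.53 ± 0.29. Mmp12, the macrophage metalloelastase, lay between 6.25 and 6.90 in 5 Nemo-deleted arrays and at 9.03 in double KO replicate 3. It did not overlap the Nemo-intact range of 5.29 to 5.51, yet its call (adjusted p = 0.0188) was lost without Cxcr6 KO replicate 3 (adjusted p = 0.0510).

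Several further genes encode membrane or membrane-binding proteins. Mtnr1a, a melatonin receptor, ran from 8.65 to 10.47 over the Nemo-deleted arrays, all above the highest Nemo-intact array, with a gap of 1.65. Its log2 fold change was 2.38 ± 0.29 (limma, adjusted p = 0.00438). Ntrk2, the receptor of BDNF, rose by 2.19 ± 0.31 with a gap of 0.97. Slc13a3, a sodium-coupled carrier of dicarboxylates, rose by 1.92 ± 0.24 with a gap of 1.07, and Nipal2, a membrane protein of the NIPA family, by 2.22 ± 0.27 with a gap of 1.00. Scamp5, a secretory carrier membrane protein, rose by 1.90 ± 0.23. Anxa2, which binds phospholipids in a calcium-dependent way, rose by 2.11 ± 0.37, and its highest array was double KO replicate 3 at 9.63.

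Transcription factors and an interferon-induced gene completed the upward set. Klf6, an immediate-early zinc finger factor, was at 7.50 and 9.32 in wildtype and at 7.01, 7.73 and 7.19 in Cxcr6 KO. Its Nemo-deleted arrays had 10.42 at the lowest, 11.19 at the median and 12.16 at the highest. Wildtype replicate 2 was its nearest Nemo-intact array, and without it the gap of 1.10 was 2.69. The log2 fold change was 3.44 ± 0.42 (limma, adjusted p = 0.00438). Mybl1, a Myb-family factor, rose by 3.34 ± 0.61 with a gap of 0.84, and of 2.14 without wildtype replicate 2. Ifi27l2b was at 7.48 and 11.95 in wildtype, between 8.31 and 9.58 in Cxcr6 KO and between 12.82 and 14.90 with Nemo deleted. Wildtype replicate 2 set the gap of 0.87, which was 3.23 without it, beside a log2 fold change of 4.99 ± 0.73 (limma, adjusted p = 0.00652).

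Downward gaps were narrower. Spry4, a feedback inhibitor of receptor tyrosine kinase signalling, was at 7.92 and 7.60 in wildtype and at 7.59, 8.20 and 8.98 in Cxcr6 KO. The Nemo-deleted arrays had 5.27 at the lowest, 5.98 at the median and 6.19 at the highest. All were below every Nemo-intact array by at least 1.40, and the log2 fold change was -2.13 ± 0.23 (limma, adjusted p = 0.00395). Spry4 was the only lower gene with a gap over 1. Acadsb, the dehydrogenase of short branched-chain acyl-CoA, was at 12.78 and 12.37 in wildtype and at 12.52, 12.48 and 12.58 in Cxcr6 KO, against 11.08, 11.62 and 11.81 as the lowest, median and highest Nemo-deleted array. It fell by 1.00 ± 0.15 on the log2 scale (limma, adjusted p = 0.00672), and the arms were 0.56 apart. Dgat2, which makes the last step of triglyceride synthesis, fell by 1.12 ± 0.19 with a gap of 0.54.

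The other 12 lower genes named by gap had varied roles. Hpgd, which degrades prostaglandins, fell by 1.35 ± 0.24, and Akr1c14, a hydroxysteroid dehydrogenase, by 1.33 ± 0.21. Gsto1, an omega-class glutathione transferase, fell by 1.40 ± 0.19, Sult1c2, a sulfotransferase, by 1.21 ± 0.18 and Txn1, thioredoxin, by 0.72 ± 0.12. All 5 had gaps between 0.42 and 0.51. Nit2, an omega-amidase, fell by 0.91 ± 0.18, Gabarapl1, an autophagy protein of the Atg8 family, by 1.29 ± 0.23 and Syf2, a splicing factor, by 0.70 ± 0.09. Ttc36 fell by 1.56 ± 0.21, Tox, an HMG-box factor, by 1.15 ± 0.17, Pde8a, a cyclic AMP phosphodiesterase, by 0.61 ± 0.07 and Tmem183a by 0.76 ± 0.10. The 30 genes were chosen by gap on these arrays, so their sizes are descriptions. They were taken from called genes, without predicted models, pseudogenes, small RNAs or olfactory receptors. Over all genes tested, 18 lower genes had a gap over 0.5, and of the 30 Spry4, Acadsb, Dgat2 and Hpgd did. Wildtype replicate 2 was the nearest Nemo-intact array for 14 of the 30, and leaving it out widened the gap by over 1.5 times for 5: Klf6, Ifi27l2b, Mybl1, Akr1c14 (from 0.43 to 1.02) and Gsto1 (from 0.50 to 0.93). Of the 30, 29 kept direction and call in all 20 alternative settings, Mmp12 being the exception.

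The Nemo effect was estimated apart in each line, Nemo KO against wildtype with Cxcr6 and double KO against Cxcr6 KO without it. The 2 comparisons share no array, but both were taken from a single fit of group means over all arrays. Their p-values use the same estimate of spread for each gene and are not independent. Leaving out an array of a line therefore also changes the p-values of the other line. With Cxcr6, 29 genes were called (0.158%), and without it 1358 (7.41%). Both counts moved with single arrays. The count with Cxcr6 was 2380 without wildtype replicate 2, 1033 without Nemo KO replicate 3, 186 without wildtype replicate 1, between 3 and 14 without double KO replicate 2 or 3, Cxcr6 KO replicate 1 or Nemo KO replicate 1 or 2, and 0 without Cxcr6 KO replicate 2 or 3. The count without Cxcr6 was 2340 and 2334 without wildtype replicate 2 and 1, 2204 without Nemo KO replicate 2, 762 without Nemo KO replicate 1, 540 and 203 without double KO replicate 2 and 3, and 529, 202 and 116 without Cxcr6 KO replicate 1, 2 and 3. It was 1319 for the line with Cxcr6 after centring arrays on their medians. Of these, 25 of 29 and 584 of 1358 (43.0%) were separating genes. The 18 genes called in both lines all separated. Of the separating genes that were called over both lines, 962 were called in neither line alone. Ly6d differed by 7.89 with Cxcr6 and 9.65 without it, Gldn by 5.39 and 5.64, and Spry4 by -2.01 and -2.23. Across all genes the 2 effects correlated at r = 0.51, and genes are not independent replicates.

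**Figure D2:**
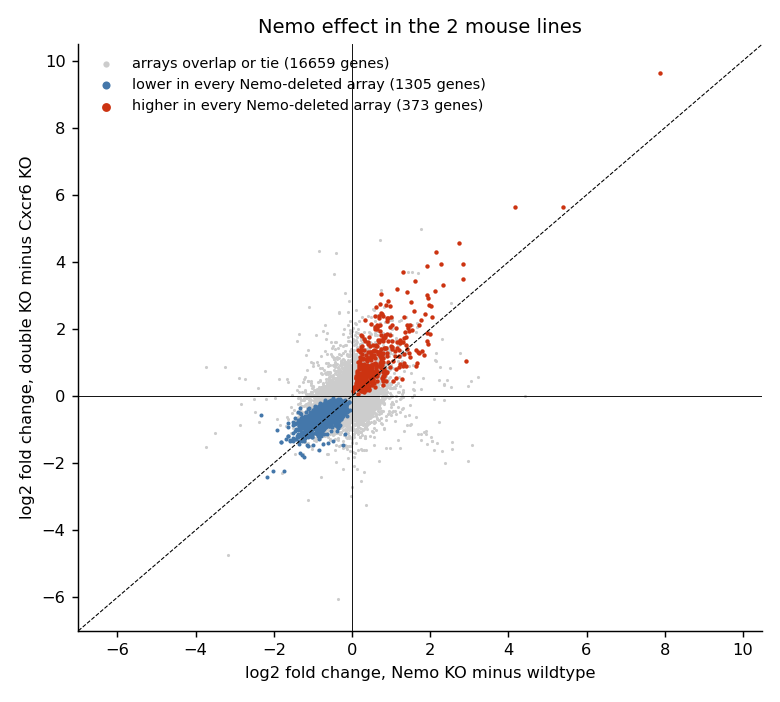
Log2 fold change with Nemo deletion in the line with Cxcr6 (horizontal, Nemo KO minus wildtype) against the line without Cxcr6 (vertical, double KO minus Cxcr6 KO), a point per gene, with equal effects on the dashed diagonal. The 373 higher genes lie mostly above the diagonal and the 1305 lower genes on both sides of it; the highest point is Ly6d at 7.89 and 9.65.

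Genes that separated upward had larger effects without Cxcr6 in 303 of 373 cases, with medians of 0.51 with Cxcr6 and 0.90 without it. Genes that separated downward had the larger fall without Cxcr6 in 407 of 1305 cases, with medians of -0.71 and -0.59 in the same order. Over all genes tested the medians were -0.04 and -0.06. These counts were not made for all genes tested, nor without wildtype replicate 2, although only 2 wildtype arrays enter the effect with Cxcr6. The difference between the 2 effects, tested as an interaction, was called for 0 of 18337 genes (0%, limma, smallest adjusted p = 0.251). At an unadjusted p below 0.05 the interaction had 2155 genes (11.8%), and 142 of these were among the 1678 separating genes (8.46%). Single arrays moved the interaction count: 232 genes without wildtype replicate 1, 86 without wildtype replicate 2, 7 without double KO replicate 1, and 1 each without double KO replicate 3 and without Nemo KO replicate 3. It remained 0 with arrays centred on their medians, with quantile normalization, without the filter and with a replicate block.

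Markers of other liver cells were higher with Nemo deleted. Of 25 endothelial markers tested, 21 rose (84%, against 4.67% of all genes tested) and 0 fell. Of these 25, 17 separated upward (68%, against 2.03%), and the median log2 fold change was 0.94. Fcgr2b, an Fc receptor of sinusoidal endothelium, was at 7.32 and 7.53 in wildtype and at 6.40, 7.29 and 7.10 in Cxcr6 KO, against 7.93, 8.61 and 9.83 as the lowest, median and highest Nemo-deleted array. The arms did not overlap, and double KO had the 3 highest arrays. Its log2 fold change was 1.70 ± 0.34 (limma, adjusted p = 0.0118). Dnase1l3, a secreted nuclease, rose by 1.70 ± 0.34, Pecam1, a junction protein of endothelium, by 0.94 ± 0.18 and Flt4, a VEGF receptor, by 0.94 ± 0.16. The endothelial count was 10 without Cxcr6 KO replicate 3 and 13 without double KO replicate 3, and 22 without wildtype replicate 2.

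The list for Kupffer cells and macrophages had 13 of 23 tested genes risen (56.5%), 0 fallen and 6 separated (26.1%), with a median of 1.05. Among all genes tested, 4.67% rose and 2.03% separated upward. Lyz2, lysozyme of myeloid cells, was at 6.37 and 7.53 in wildtype and at 7.39, 7.74 and 7.51 in Cxcr6 KO, against 8.38, 9.50 and 10.81 as the lowest, median and highest Nemo-deleted array. Its arms were 0.63 apart and its log2 fold change was 2.39 ± 0.34 (limma, adjusted p = 0.00620). Msr1, a scavenger receptor, rose by 1.33 ± 0.26 and Tyrobp, a signalling adaptor, by 0.98 ± 0.22. Tyrobp and Gpnmb passed the signal filter through Nemo-deleted groups alone. Ctss, cathepsin S, rose by 1.56 ± 0.34, with wildtype replicate 2 at 8.09 inside the Nemo-deleted range. The defining markers Adgre1 (1.05 ± 0.35, adjusted p = 0.0585) and Clec4f (0.95 ± 0.32, adjusted p = 0.0611) were not called. Without wildtype replicate 2 the counts were 18 risen and 11 separated, and without Nemo KO replicate 2 12 separated. Between 6 and 8 rose when Cxcr6 KO replicate 1, 2 or 3, double KO replicate 2 or 3, or wildtype replicate 1 was left out.

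Of 15 markers of stellate cells and fibroblasts, 10 rose (66.7%), 0 fell and 6 separated (40%). Of 19 cholangiocyte markers, 9 rose (47.4%), 0 fell and 7 separated (36.8%). Epcam, Muc1, Anxa3 and Cldn4 passed the signal filter through Nemo-deleted groups alone, so their part in these counts is a description. Muc1 separated without a call (limma, adjusted p = 0.0886). The shares over all genes tested were 4.67% risen and 2.03% separated upward. Lrat, the retinol-esterifying enzyme of stellate cells, rose by 0.86 ± 0.16 (limma, adjusted p = 0.00927). Dcn, decorin, rose by 2.64 ± 0.48, from 6.48 to 8.41 with Nemo intact to 9.11 to 11.39 with Nemo deleted. Elf3, an epithelial transcription factor, rose by 0.78 ± 0.16 and Cd24a, a surface sialoglycoprotein of progenitor and biliary cells, by 1.20 ± 0.26. The biliary keratin Krt7 lay between 5.47 and 5.72 in all arrays, near the array medians, and Sox9 was not called (adjusted p = 0.486). Leaving out Cxcr6 KO replicate 2, Cxcr6 KO replicate 3 or double KO replicate 2 left 3 stellate markers called in each case, and wildtype replicate 1 left 5. The cholangiocyte count was 3 without Cxcr6 KO replicate 3, 4 without Cxcr6 KO replicate 2, and 5 without Cxcr6 KO replicate 1, double KO replicate 2, double KO replicate 3 or wildtype replicate 1.

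**Figure D3:**
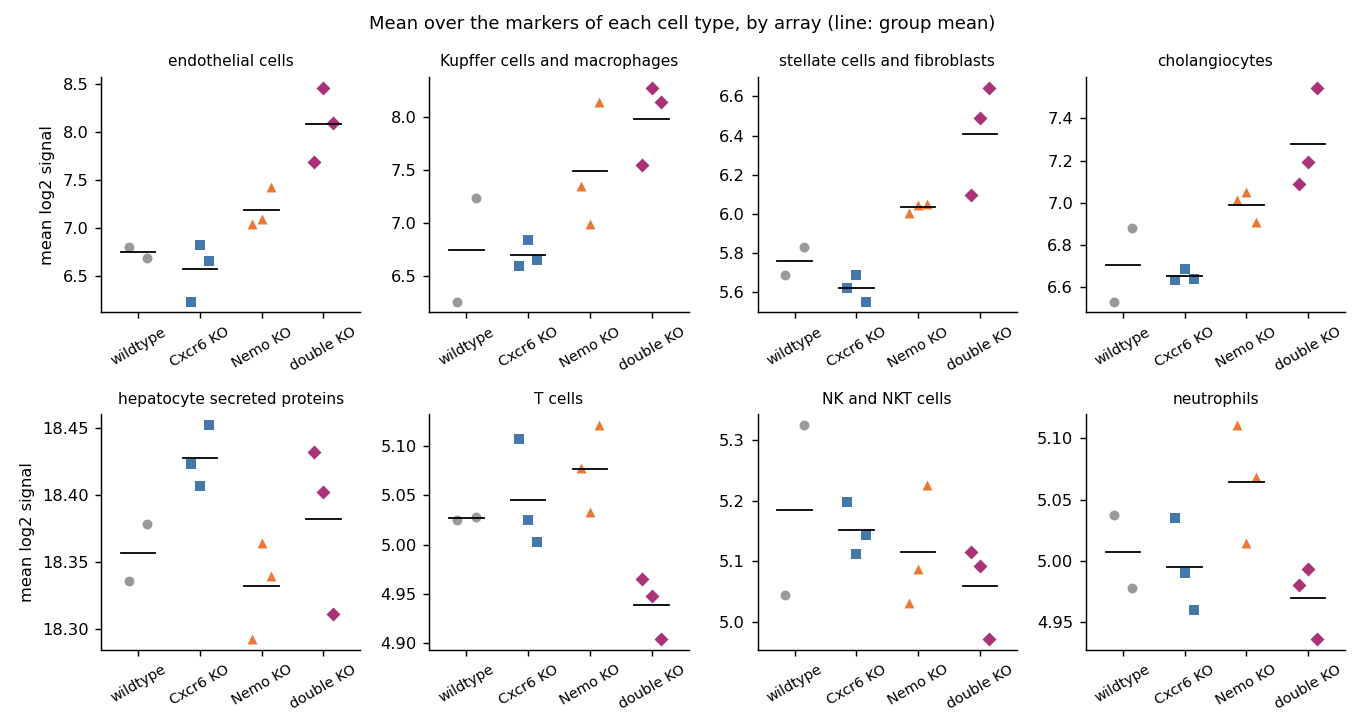
Mean log2 signal over the marker genes of 8 cell types in each array, by group, with a bar at the group mean; each panel has its own vertical range. Endothelial, stellate and cholangiocyte means of all Nemo-deleted arrays lie above those of all Nemo-intact arrays. Most hepatocyte secreted proteins are near the highest value of the arrays, so their narrow range of 18.29 to 18.45 says little.

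By array, the mean over endothelial markers ran from 7.04 to 8.46 with Nemo deleted and from 6.23 to 6.82 with Nemo intact. Stellate means reached 6.64 with Nemo deleted and 5.83 with Nemo intact and did not overlap, and cholangiocyte means from 6.91 to 7.55 against 6.53 to 6.88. Kupffer means were 6.98 to 8.28 against 6.26 to 7.24, and the overlap came from wildtype replicate 2 alone, the other Nemo-intact arrays being at 6.84 or below. In 82 markers of these 4 cell types, 36 separated upward, which is 9.65% of all genes that did so. Among the 36, Epcam, Muc1, Anxa3, Gpnmb and Tyrobp passed the signal filter through Nemo-deleted groups alone. Of all genes tested, 2.03% separated upward. T cell markers had means between 4.90 and 5.12, NK and NKT cell markers between 4.97 and 5.32 and neutrophil markers between 4.94 and 5.11, all low on the scale of these arrays. All means of this paragraph are over every list gene with a row, tested or not. For these 3 lists that is 10, 16 and 13 genes, of which 3, 5 and 4 passed the signal filter and were tested. None of these 12 tested members was called or separated. In the list of monocytes and dendritic cells 1 of 5 rose (Ly6c2, 0.76 ± 0.20, limma, adjusted p = 0.0258), and 0 without double KO replicate 2 or 3, Cxcr6 KO replicate 2 or 3, or wildtype replicate 1. In the list of B and plasma cells 1 of 3 rose (Ighm, 0.80 ± 0.25, limma, adjusted p = 0.0459), and 0 in 8 of the 11 leave-outs, the exceptions being double KO replicate 3, Cxcr6 KO replicate 2 and Nemo KO replicate 2. Ly6c2 and Ighm were chosen after their values were seen, and neither separated. In bulk RNA, a change in the number of cells of a type and a change in RNA per cell cannot be told apart. The part of these marker genes in the other results was not tested.

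Of 23 hepatocyte identity genes, 0 rose, 4 fell (17.4%, against 14.7% of all genes tested) and 0 separated. Among 13 secreted proteins and enzymes 1 fell, but 9 of these had a mean signal over 19, near the highest value of the arrays, so their median of -0.02 says little. Among 10 transcription factors 3 fell, with a median log2 fold change of -0.48, and their mean was highest in wildtype replicate 1, at 12.07 against 10.49 to 11.05 in the other Nemo-intact arrays. Cebpa, a factor of hepatocyte differentiation, fell by 1.33 ± 0.29 (limma, adjusted p = 0.0144), with 11.20 in wildtype replicate 2 just inside the Nemo-deleted range of 10.34 to 11.25. Hnf4a, the nuclear receptor that maintains hepatocyte fate, had 12.24 to 12.80 with Nemo deleted and 12.80 to 13.65 with Nemo intact, a tie between the arms. Its fall of 0.54 ± 0.15 (adjusted p = 0.0359) was not called under centring on the median (adjusted p = 0.0513) or quantile normalization (adjusted p = 0.0628), nor without any 1 of 6 arrays (double KO replicate 2, Cxcr6 KO replicate 2 or 3, Nemo KO replicate 1 or 2, wildtype replicate 1; adjusted p between 0.0523 and 0.0818). The list's count was 1 without Cxcr6 KO replicate 2, Cxcr6 KO replicate 3 or Nemo KO replicate 1, and 2 without Nemo KO replicate 2 or wildtype replicate 1.

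Matrix genes rose together with the stellate markers, with which the list shares Dcn, Col1a1, Col1a2 and Col3a1. Of 38 genes of extracellular matrix and fibrosis with a row, 27 were tested, and all 27 had a positive log2 fold change. Of the 27, 17 rose (63.0%, against 4.67% of all genes tested), 0 fell and 12 separated upward (44.4%, against 2.03%). A Nemo-deleted group alone could bring a gene past the signal filter, so the shared direction is a description. Bgn, biglycan, was at 7.27 and 7.91 in wildtype and at 6.90, 7.62 and 7.30 in Cxcr6 KO, against 8.55, 9.11 and 11.23 as the lowest, median and highest Nemo-deleted array. The arms did not overlap, and the log2 fold change was 2.29 ± 0.44 (limma, adjusted p = 0.0103). Lgals1, galectin-1, rose by 1.44 ± 0.18, and Col1a1, a chain of type I collagen, by 0.34 ± 0.07 with a gap of 0.07. The count of risen genes was 8 without Cxcr6 KO replicate 3, 10 without Cxcr6 KO replicate 2, and 11 without double KO replicate 2 or wildtype replicate 1.

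Among growth factor genes, called members included ligands and a feedback inhibitor. Of 26 genes, 5 rose (19.2%, against 4.67% of all genes tested) and 2 fell (7.69%, below the 14.7% of all genes tested). Upward, 5 separated (19.2%, against 2.03%), and downward 2 did (7.69%, against 7.12%). The downward counts are near or below the background. The 2 upward sets differ in Ccn1, a matricellular protein that rose and overlapped, and Ankrd1, which separated at an adjusted p of 0.0667 (limma). Both were chosen after their values were seen. Nrg1, a ligand of ErbB receptors, was between 5.47 and 6.24 with Nemo intact and between 6.71 and 10.20 with Nemo deleted, with double KO replicate 3 the highest. Its log2 fold change was 2.35 ± 0.48 (limma, adjusted p = 0.0123). Btc, betacellulin and an EGF receptor ligand, rose by 1.07 ± 0.20, and Fgf1, a fibroblast growth factor, fell by 0.90 ± 0.16. Spry4 is the other gene that fell. Without wildtype replicate 2, 8 rose and 9 separated upward, and without wildtype replicate 1, 3 rose. In the tumour and oncofetal list, which holds Ly6d, 22 genes had a row and 16 were tested. Of the 16, 9 rose (56.25%, against 4.67% of all genes tested), 0 fell and 6 separated upward (37.5%, against 2.03%). Golm1, a Golgi protein raised in liver cancer, was between 6.59 and 7.02 with Nemo intact and between 7.73 and 8.59 with Nemo deleted, and rose by 1.59 ± 0.15 (limma, adjusted p = 0.00316). The fetal protein Afp separated with a gap of 0.06 at 5.36 to 5.64 against 5.70 to 6.43, near the array medians. Its adjusted p of 0.0472 passed 0.05 on all arrays together and was between 0.0542 and 0.112 with 8 single arrays left out, namely double KO replicate 2, each Cxcr6 KO array, each Nemo KO array and wildtype replicate 1. It was also above 0.05 after centring (0.0668) and quantile normalization (0.0736).

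Complement genes made by the liver were higher. Of 22 complement genes, 13 rose (59.1%, against 4.67% of all genes tested), 0 fell and 7 separated upward (31.8%, against 2.03%). Of 18 coagulation genes, 3 rose (16.7%), 0 fell and 1 separated upward (5.56%). C9, the pore-forming component, was at 16.02 and 15.82 in wildtype and at 15.73, 15.69 and 15.80 in Cxcr6 KO, against 16.45, 17.00 and 17.33 as the lowest, median and highest Nemo-deleted array. The arms were 0.43 apart and the log2 fold change was 1.07 ± 0.11 (limma, adjusted p = 0.00316). Clu, clusterin and a complement inhibitor, rose by 0.64 ± 0.09. C4b rose by 0.74 ± 0.13 and Hc, complement C5, by 0.64 ± 0.09, and both overlapped between the arms. For complement and coagulation together 16 rose, and 9 without double KO replicate 3, while 8 separated, and 15 without wildtype replicate 2 or 13 without double KO replicate 1. Of 35 acute phase genes, 9 rose (25.7%, against 4.67% of all genes tested) and 1 fell (2.86%, below the 14.7% of all genes tested). Upward, 2 separated (5.71%, against 2.03%). Serpina3n, a protease inhibitor, rose by 0.79 ± 0.09 and Orm3, an orosomucoid, by 1.07 ± 0.18, and these are the 2 that separated. That number was 5 without double KO replicate 1 and 8 without wildtype replicate 2.

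Of 27 genes of the IkB kinase and NF-kB list, 1 rose (3.70%, against 4.67% of all genes tested), 3 fell (11.1%, against 14.7%) and 1 separated, with a median of -0.03, so these counts are near the background. Sod2, mitochondrial superoxide dismutase and an NF-kB target, fell by 0.74 ± 0.14 (limma, adjusted p = 0.00991), with a tie at 8.59 between wildtype replicate 2 and double KO replicate 1. Nfkbib, an inhibitor of NF-kB, fell by 0.41 ± 0.09 and separated by 0.03, and Cyld, a deubiquitinase that restrains the pathway, fell by 0.35 ± 0.08. The target Icam1, an adhesion molecule, rose by 0.56 ± 0.16 (adjusted p = 0.0317), and that call was lost without double KO replicate 2, Cxcr6 KO replicate 1, 2 or 3, Nemo KO replicate 1 or 2, or wildtype replicate 1 (adjusted p between 0.0506 and 0.0762). The number of its genes that separated downward was 3 without double KO replicate 1 and 2 without Cxcr6 KO replicate 1, wildtype replicate 1 or wildtype replicate 2. Cxcl16 rose by 0.60 ± 0.13 (adjusted p = 0.0155) with a gap of 0.01.

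Of 28 cell death genes, 6 rose (21.4%, against 4.67% of all genes tested) and 2 fell (7.14%, below the 14.7% of all genes tested). Upward, 2 separated (7.14%, against 2.03%), Casp12 and the TWEAK receptor Tnfrsf12a (limma, adjusted p = 0.0538). Casp12, a caspase tied to endoplasmic reticulum stress, was between 5.45 and 5.68 with Nemo intact and between 6.09 and 7.32 with Nemo deleted, and rose by 1.11 ± 0.17 (limma, adjusted p = 0.00746). Casp1, the inflammasome caspase, rose by 0.90 ± 0.16, Tnfrsf10b, a TRAIL receptor, by 1.16 ± 0.24 and Mlkl, the effector of necroptosis, by 0.98 ± 0.22. Mlkl was at 8.58 in wildtype replicate 2 and between 7.09 and 7.27 in the other Nemo-intact arrays. Without wildtype replicate 2, 6 cell death genes separated upward, and without Nemo KO replicate 3, 4 did. The count of fallen genes was 1 without double KO replicate 2, double KO replicate 3, Cxcr6 KO replicate 1 or Cxcr6 KO replicate 3. Of 22 p53 targets, 5 rose (22.7%, against 4.67% of all genes tested), 0 fell and 2 separated upward (9.09%, against 2.03%). Btg2, an antiproliferative gene, rose by 1.11 ± 0.18 and Eda2r, a TNF receptor family member, by 1.04 ± 0.21. The p53 counts were 8 risen and 8 separated without wildtype replicate 2, 3 risen without wildtype replicate 1 and 5 separated without Nemo KO replicate 3.

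Proliferation genes depended on wildtype replicate 2. Of 36 cell cycle genes, 0 rose and 1 fell (limma), with a median log2 fold change of 0.59. The gene that fell was Pcna, a replication clamp, chosen after its values were seen. With wildtype replicate 2 left out, 23 rose, 1 fell and 21 separated upward, with a median of 0.90. Mki67 was at 5.35 and 11.18 in wildtype and at 5.71, 5.89 and 5.46 in Cxcr6 KO, against 8.53, 9.15 and 12.38 as the lowest, median and highest Nemo-deleted array. Wildtype replicate 2 was above 5 of the 6 Nemo-deleted arrays. The log2 fold change was 2.90 ± 1.14 (adjusted p = 0.101), and the adjusted p was 0.00411 without wildtype replicate 2. Cdkn1a, an inhibitor of the cell cycle and a p53 target, was likewise not called with all arrays (adjusted p = 0.115) and was called without wildtype replicate 2 (adjusted p = 0.0131) and with the 4 group means averaged (adjusted p = 0.0361). Its difference was -0.42 ± 0.81 with Cxcr6 (adjusted p = 0.797) and 4.28 ± 0.72 without it (adjusted p = 0.0163), and the interaction had an adjusted p of 0.251 (limma). Both wildtype arrays were high, at 8.91 and 11.46, against 6.01 to 7.11 in Cxcr6 KO.

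Transcripts of fatty acid oxidation genes were mostly lower. Of 38 genes of oxidation and Ppara targets, 15 fell (39.5%, against 14.7% of all genes tested) and 1 rose, with a median of -0.46. Downward, 3 separated (7.89%, against 7.12% of all genes tested), so that count is near the background. Acadl, long-chain acyl-CoA dehydrogenase, was at 15.21 and 14.72 in wildtype and at 14.89, 15.15 and 15.11 in Cxcr6 KO, against 13.11, 13.89 and 14.44 as the lowest, median and highest Nemo-deleted array. The arms were 0.28 apart and it fell by 1.07 ± 0.18 (limma, adjusted p = 0.00814). The peroxisomal thioesterases Acot3 and Acot4 fell by 2.06 ± 0.25 and 1.19 ± 0.13, and Fabp1, the liver fatty acid binding protein, by 1.04 ± 0.21. The gene that rose, named after its values were seen, was Pdk4, a kinase that holds back pyruvate oxidation, by 3.21 ± 0.76 (adjusted p = 0.0180). Without wildtype replicate 2, 17 separated downward, and without double KO replicate 3, 7 did.

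In lipid synthesis and storage, 3 of 30 genes rose (10%, against 4.67% of all genes tested). Another 2 fell (6.67%, below the 14.7% of all genes tested), and 1 did without Cxcr6 KO replicate 3. Apart from Apoa4 and Dgat2, Cidea, a lipid droplet protein, rose by 0.30 ± 0.07 and Pklr, liver pyruvate kinase, fell by 1.05 ± 0.25 (limma, adjusted p = 0.0197), which was not called without Cxcr6 KO replicate 3 (0.0535) or wildtype replicate 1 (0.0590). Abcb4, the canalicular phospholipid transporter, was between 13.91 and 14.64 with Nemo intact and between 14.94 and 16.37 with Nemo deleted, and rose by 1.31 ± 0.23 (limma, adjusted p = 0.00920). Klb, the co-receptor of Fgf21 and Fgf15, fell by 0.96 ± 0.22 and separated by 0.03. Baat, which conjugates bile acids, fell by 0.92 ± 0.18. In glucose metabolism, 4 of 24 genes rose (2 without double KO replicate 2 or wildtype replicate 1) and 4 fell. Each main count is 16.7%, against 4.67% risen and 14.7% fallen of all genes tested, so the fallen count is near the background. Upward, 2 separated (8.33%, against 2.03%), and downward 3 did (12.5%, against 7.12%). Sik1, a kinase that restrains gluconeogenic transcription, rose by 1.49 ± 0.30 and overlapped. Pdk4, given above, is in this list too. Pdk1, a pyruvate dehydrogenase kinase, fell by 0.97 ± 0.18 and Pygl, liver glycogen phosphorylase, by 0.48 ± 0.10, and both separated.

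Families of the protein-making and energy-producing machinery were lower. The 5 families of ribosomal, proteasome, complex I and initiation factor 3 proteins held 59 of the 1305 genes that separated downward (4.52%). These families were grouped by symbol after the values were seen, so their counts are descriptions. Of 43 cytosolic ribosomal proteins, 31 fell, 0 rose and 17 separated, with a median log2 fold change of -0.57. The mean over the family ran from 9.26 to 9.94 with Nemo deleted and from 9.99 to 10.39 with Nemo intact, so the arms did not overlap. Rps20, of the small subunit, was at 8.68 and 8.42 in wildtype and at 8.57, 8.74 and 8.75 in Cxcr6 KO, against 7.84, 8.01 and 8.24 as the lowest, median and highest Nemo-deleted array. It fell by 0.57 ± 0.08 (limma, adjusted p = 0.00630). Of 75 mitochondrial ribosomal proteins 46 fell and 19 separated downward, of 37 proteasome subunits 24 fell and 9 separated, of 33 respiratory complex I subunits 27 fell and 12 separated, and of 11 subunits of translation initiation factor 3, 6 fell and 2 separated. The means of complex I and of initiation factor 3 overlapped between the arms, the latter at 10.34 to 11.04 with Nemo deleted and 10.95 to 11.60 with Nemo intact. Rps20, Psma1 and Ndufv2 were chosen after their values were seen. Psma1, of the proteasome core, fell by 0.69 ± 0.10 and Ndufv2, of complex I, by 0.81 ± 0.12.

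**Figure D4:**
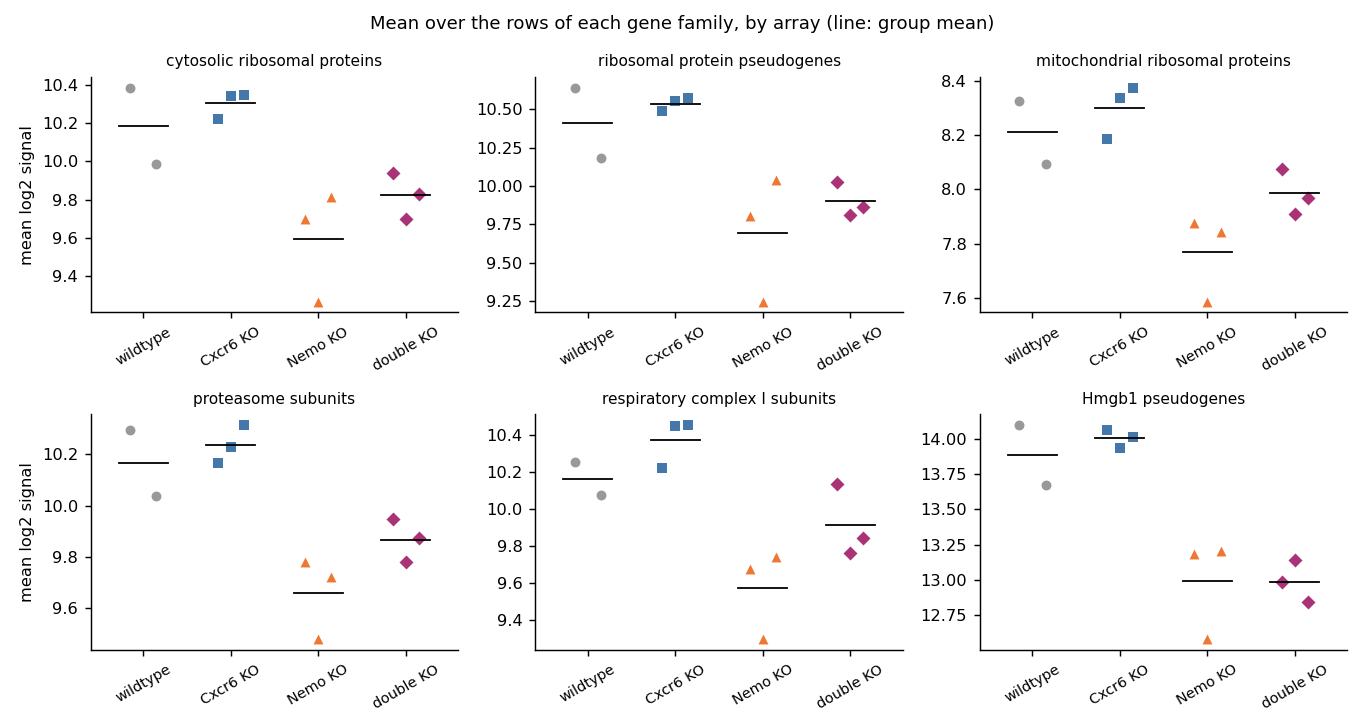
Mean log2 signal over the genes of 6 families, initiation factor 3 not being drawn, in each array, by group, with a bar at the group mean; each panel has its own vertical range. The Nemo-deleted arrays lie below the Nemo-intact arrays in every panel except complex I, where double KO replicate 1 at 10.13 lies above wildtype replicate 2 at 10.07.

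Pseudogenes followed the same direction. Of 194 ribosomal protein pseudogenes, 141 fell, 0 rose and 90 separated, with a median of -0.73, and all 7 Hmgb1 pseudogenes fell and separated, with a median of -0.95. A pseudogene row and that of its parent can share signal, so these are not independent genes. Of 3079 pseudogenes of any kind, 612 (19.9%) separated downward and 15 (0.487%) upward, against 655 (5.44%) and 329 (2.73%) of 12039 protein-coding genes. The medians of these classes were -0.30 and -0.03. The median log2 fold change varied with signal, without a steady trend at the bright end: it was -0.00 for genes with a mean signal up to 6, -0.14 between 8 and 10, -0.29 between 12 and 14, and -0.13 from 14 to 20. The direction of each family was the same after centring arrays on their medians and after quantile normalization.

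The family counts also moved with single arrays. Leaving out wildtype replicate 2, separation downward reached 32 cytosolic and 50 mitochondrial ribosomal proteins, 157 ribosomal protein pseudogenes, 22 proteasome subunits, 20 complex I subunits and 7 subunits of initiation factor 3. Without double KO replicate 1 it reached 37 mitochondrial ribosomal proteins, 17 proteasome subunits, 26 complex I subunits and 4 subunits of initiation factor 3. Without wildtype replicate 1, the calls were 18 cytosolic and 24 mitochondrial ribosomal proteins, 75 ribosomal protein pseudogenes and 15 complex I subunits. Without Cxcr6 KO replicate 3 they were 30 mitochondrial ribosomal proteins and 17 complex I subunits.

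Of the genes called over both Cxcr6 states, 2010 did not separate the arrays, and 1766 of these separated once a single array was left out. The array was most often wildtype replicate 2 (1122 genes), then double KO replicate 1 (575) and Nemo KO replicate 3 (266), while Nemo KO replicate 2 was the one for 33 genes. A gene can count under more than 1 array. Exact ties took part: in 9060 genes (49.4% of those tested) at least 2 arrays hold the same deposited value, and 353 of the 2010 (17.6%) were tied between the nearest arrays of the arms.

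**Figure D5:**
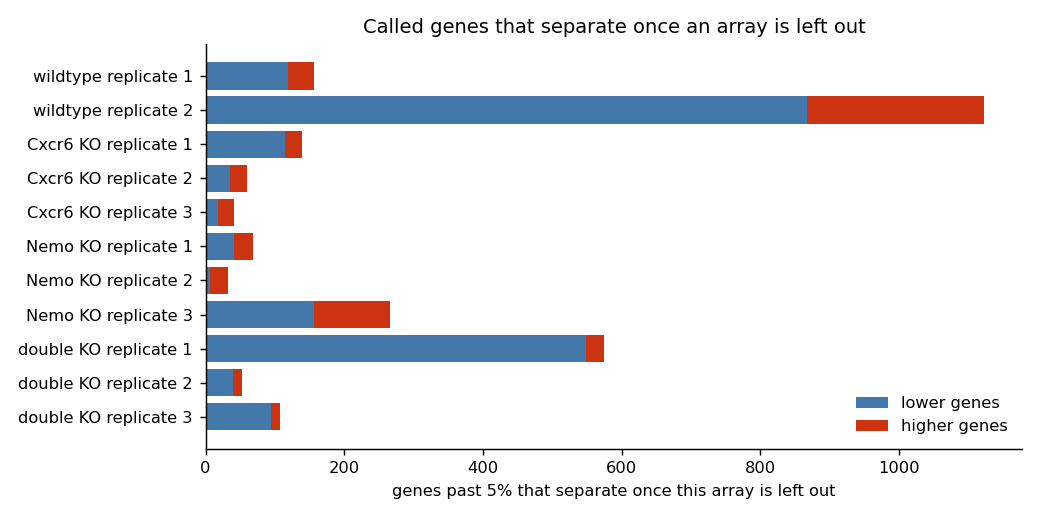
For each array, the number of called genes that separate the arms once that array is left out, split into genes lower and higher with Nemo deleted. Wildtype replicate 2 has the longest bar (1122 genes, of which 867 are lower), followed by double KO replicate 1 (575, of which 549 are lower).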

How the data were processed

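Hepatocyte RNA (300 ng per sample, Affymetrix WT Plus kit) of 11 samples was measured on arrays. The authors' deposited log2 signals were made with RMA in Affymetrix Expression Console, and Transcriptome Analysis Console is also listed, per the submitters' processing notes, without versions. The genome build is not stated in those sources. Of 65956 rows, 30604 had 1 gene symbol, 2146 several and 33206 none. Symbols were updated by gene ID against RefSeq for GRCm38.p6 (22818 matched, 827 changed). The brightest row stood for each of 30142 genes, and 18337 whose highest group mean reached the median row mean of 5.27 were tested. A Nemo-deleted group alone could thus bring in a gene low with Nemo intact, such as Ly6d or Gldn. Upward counts that hold such genes are descriptions.

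limma 3.58.1 in R 4.3.3 fitted Nemo and Cxcr6 state over all arrays. Adjusted p-values are two-sided, Benjamini-Hochberg over all genes tested, with a threshold of 0.05. Effects within a line and the interaction came from 4 group means in a single fit over all arrays, with a shared spread for each gene. The code was tested on simulated data. The number of arrays limits precision. Named genes were the 15 widest gaps each way among called, separating genes without predicted models, pseudogenes, small RNAs or olfactory receptors, up to 4 called genes with the smallest p of each of 39 lists, and Ikbkg, Cxcr6, Cxcl16, Afp, Mki67 and Cdkn1a. Members and lists were chosen with earlier results of these data known. Alternatives were scaling, filter, gene summary, variance model, covariate, replicate block and leaving out each array. Replicate numbers were checked for pairing and did not pair the samples.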

Additional observations from a re-analysis of the deposited data

Results flagged for a closer look

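In 29 of 272 sets of arrays (136 named genes in each arm, 10.7%), 1 array lay farther from the other arrays of its arm than the critical value of Dixon's test. In a single normal sample that value is passed in about 5% of cases. Each arm held 2 groups and most genes were chosen on these arrays, so 5% is not the chance rate for these sets. Of the 29, 12 were wildtype replicate 2 and 8 were double KO arrays. No explanation was tested. Cxcr6 KO replicate 1 was the highest array of its arm, on the log2 scale, for Cidea (5.45). Cxcr6 KO replicate 3 was the lowest array of its arm, on the log2 scale, for Atf3 (9.17). Nemo KO replicate 2 was the lowest array of its arm, on the log2 scale, for Cat (18.58), Spry4 (5.27), Syf2 (8.51) and Txn1 (12.11). Double KO replicate 1 was the highest array of its arm, on the log2 scale, for Afp (6.43). Double KO replicate 2 was the lowest array of its arm, on the log2 scale, for Cyp2c40 (16.80) and Cyp2c69 (15.57). Double KO replicate 3 was the lowest array of its arm, on the log2 scale, for Dgat2 (14.35) and Fgf1 (8.32). Double KO replicate 3 was the highest array of its arm, on the log2 scale, for Anxa2 (9.63), Mmp12 (9.03) and Mybl1 (11.88). Wildtype replicate 1 was the lowest array of its arm, on the log2 scale, for Lyz2 (6.37) and Trim30a (5.70). Wildtype replicate 1 was the highest array of its arm, on the log2 scale, for Pdia6 (15.38). Wildtype replicate 2 was the lowest array of its arm, on the log2 scale, for Cyp2c54 (17.39), Cyp2e1 (19.30), Ephx1 (15.11) and Gsto1 (8.49). Wildtype replicate 2 was the highest array of its arm, on the log2 scale, for Eda2r (6.04), Golm1 (7.02), Mki67 (11.18), Mlkl (8.58), Mybl1 (7.15), Nrg1 (6.24), Reln (7.40) and Tnfrsf10b (5.75).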

How the results depend on the processing

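Of 136 named genes, 93 kept direction and side of the threshold in every one of up to 20 alternatives, and 40 lost their call in at least 1. Mki67 and Cdkn1a gained one as given above. Ikbkg, not called in any of these, changed sign, to 0.0154 with quantile normalization, 0.0562 without double KO replicate 1, 0.0206 without double KO replicate 2 and 0.0278 without wildtype replicate 2, with a range of -0.1280 to 0.0562 over left-out arrays. Separating genes numbered 1464 after centring arrays on their medians (1245 shared with the 1678) and 1454 after quantile normalization (1057 shared), with 18.5% and 28.2% of them higher, against 22.2%. With single arrays left out, genes risen ranged from 406 to 1386, fallen from 1467 to 3014, separated upward from 398 to 1060 and downward from 1321 to 2627. The Nemo effect with Cxcr6 ranged from 0 to 2380 genes, that without Cxcr6 from 116 to 2340, and the interaction from 0 to 232. The effect with Cxcr6, 29 genes, was 1319 after centring, 11 after quantile normalization, 7 without the filter on low signal and 0 with a replicate block. The cause of these changes was not tested. With the replicate block, 3305 genes were called over both lines, 3073 of them among the 3558. The replicate numbers did not pair the samples. Arrays give no read depth. No detection limit was measured, so differences in genes near the array medians are to be read with care.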
